A study of Mus musculus with 3 samples.

Results

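The 4 mature microRNAs described here are mmu-miR-126a-3p and mmu-miR-126a-5p, the 2 arms of the mouse miR-126a hairpin, and mmu-miR-221-3p and mmu-miR-222-3p, which share a seed. They were chosen by name from 1881 mouse miRNAs on the array, with earlier results of these data known, and each is carried by 2 probes. Serum came from C57BL/6NJcl males aged 8 weeks, and RNA was prepared from 200 µL of it by each of 3 procedures, with 1 array per procedure. In the exoRNeasy arm, serum was mixed with 700 µL of the phenol and guanidine reagent QIAzol, and RNA of the aqueous layer was purified with the exoRNeasy midi kit as a measure of total serum RNA. In the miRNeasy advanced arm RNA was purified with the miRNeasy serum/plasma advanced kit, and in the mirVana PARIS arm with the mirVana PARIS kit, which is made to recover RNA and native protein. No treatment or mutation is given for the animals, serum was spun off at 6000 G for 3 min, and 1.8 ng of RNA per extract was labelled with Cy3; neither the number of mice bled nor any pooling of their serum is given in the labels. No test of significance was possible with a single array for each kit. All errors below are between replicate spots of a probe on an array, and they leave out the extraction and the animals.

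miR-126 is abundant in endothelial cells and platelets. Its hairpin lies in an intron of Egfl7, a gene of endothelial cells, and the 3p arm represses Spred1 and Pik3r2, which restrain signalling from vascular growth factors, while the 5p arm represses Dlk1, an inhibitor of Notch signalling. miR-221 and miR-222 are made from neighbouring hairpins on the X chromosome, are present in endothelial cells and many blood cells, and repress Kit, the stem cell factor receptor, and the cell cycle inhibitor Cdkn1b. A miRNA finds its targets mainly through the seed, bases 2 to 8 from the 5′ end, and serum carries miRNAs released by many cell types, so that an array of serum does not show the cell of origin.

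The mature sequences below, from RefSeq on GRCm38.p6, show what joins the miR-221 and miR-222 pair and what lies opposite miR-126a-3p, with the seed in capitals. RefSeq held mature sequences for 3 of the 4 miRNAs, and miR-126b-5p is printed because it is read from the opposite strand of the same locus.
miR-126a-3p: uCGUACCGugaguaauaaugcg
miR-126b-5p: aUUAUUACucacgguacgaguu
miR-221-3p: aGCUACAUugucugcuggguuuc
miR-222-3p: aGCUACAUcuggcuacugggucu

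miR-126a-3p is at chr2:26591402-26591423 on the plus strand, in the Mir126a hairpin at chr2:26591357-26591429, inside Egfl7 at chr2:26581083-26592682. miR-126b-5p is at chr2:26591399-26591420 on the minus strand, and its reverse complement holds 19 of the 22 bases of miR-126a-3p in 1 unbroken stretch. No other mature mouse miRNA in the reference has the seed of miR-126a-3p. miR-221-3p at chrX:19146307-19146329 and miR-222-3p at chrX:19146901-19146923 are both on the minus strand, and their hairpins are 504 bases apart. Both are 23 bases long, have the same first 8 bases and have the same base at 11 of 23 positions counted from the 5′ end. Their seed occurs in 1 other mature mouse miRNA of the reference, miR-1928, for which no spot was well above background on any of the arrays. The G and C content is 45.5% for miR-126a-3p, 47.8% for miR-221-3p and 52.2% for miR-222-3p.

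Of the 4 miRNAs, miR-126a-3p was the 1 detected on all 3 arrays, miR-221-3p was detected only with mirVana PARIS, and miR-126a-5p and miR-222-3p on none. A probe counted as detected where over 0.5 of its spots, outliers left out, were flagged well above background by the scanner software, and a miRNA where at least 1 probe was detected. Among all 1881 miRNAs, 67 were detected on all 3 arrays, 50 only with mirVana PARIS and 1744 on none. The exoRNeasy, miRNeasy advanced and mirVana PARIS arrays detected 83, 71 and 134 miRNAs. The lowest mean signal of a detected probe was 22.0 with exoRNeasy, 12.4 with miRNeasy advanced and 9.56 with mirVana PARIS, in linear intensity units after background subtraction, so the mirVana PARIS array counted dimmer probes as detected than the other two. No spot was saturated, and all 3 arrays lay on 1 slide read in 1 scan, so that slide and scan do not separate the kits.

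**Figure D1:**
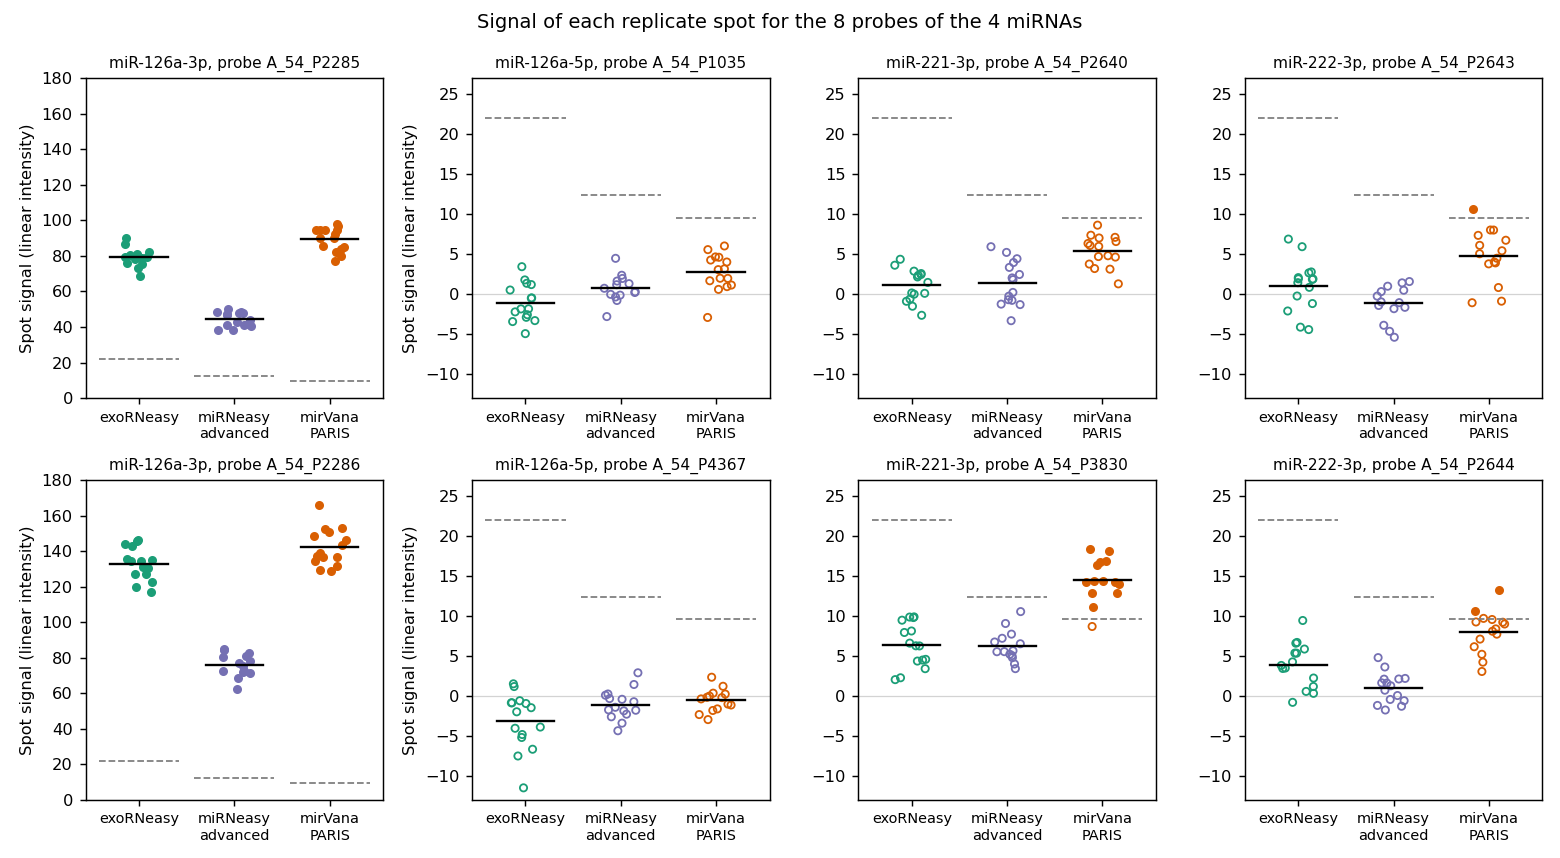
Signal of every replicate spot (linear intensity, y axis) for the 2 probes of each miRNA (columns) on the exoRNeasy, miRNeasy advanced and mirVana PARIS arrays (x axis), outlier spots left out. Filled points are spots well above background, open points are not, black bars are means and dashed lines the lowest mean signal of any detected probe on that array. All spots of miR-126a-3p are filled, those of miR-126a-5p are all open, and the filled points of miR-221-3p and miR-222-3p are with mirVana PARIS; the y axis of miR-126a-3p differs from that of the other miRNAs.

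miR-126a-3p, the arm known for its part in vessel integrity, gave clear signal from serum RNA of every kit. Its brighter probe, A_54_P2286, had spots with a lowest, median and highest signal of 117, 134 and 146 with exoRNeasy. The same probe had 62.3, 75.5 and 85.0 with miRNeasy advanced. It had 129, 139 and 166 with mirVana PARIS. The exoRNeasy and mirVana PARIS spots thus overlapped in range before any scaling, and both sets lay wholly above the miRNeasy advanced spots. The means were 133 ± 9.27 with exoRNeasy, 75.7 ± 6.28 with miRNeasy advanced and 142 ± 10.4 with mirVana PARIS (SD, 15 spots each). Its dimmer probe, A_54_P2285, averaged 79.4 ± 5.29 with exoRNeasy (SD, 14 spots), 44.3 ± 4.02 with miRNeasy advanced and 89.4 ± 6.55 with mirVana PARIS (SD, 15 spots each). The order of the 3 arrays and the overlaps of the spots were the same for both probes.

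Without scaling, miR-126a-3p was 1.76-fold brighter with exoRNeasy than with miRNeasy advanced, with a log2 difference of 0.81 ± 0.04 (SE between spots). For exoRNeasy minus mirVana PARIS the unscaled difference was −0.099 ± 0.04, and for miRNeasy advanced minus mirVana PARIS it was −0.91 ± 0.04. The 2 spike-in controls of the assay, each read by 4 probes, give a scale that does not rest on serum miRNAs. The labelling spike-in differed by −0.12 ± 0.08 for exoRNeasy minus miRNeasy advanced, by −0.25 ± 0.18 for exoRNeasy minus mirVana PARIS and by −0.13 ± 0.12 for miRNeasy advanced minus mirVana PARIS (SD, 4 probes). For the hybridisation spike-in the difference was 0.42 ± 0.06 for exoRNeasy minus miRNeasy advanced, 0.41 ± 0.11 for exoRNeasy minus mirVana PARIS and −0.0078 ± 0.06 for miRNeasy advanced minus mirVana PARIS (SD, 4 probes), and its part in the unscaled differences of miR-126a-3p was not tested.

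The arrays also differed as a whole, so each was scaled to the 75th percentile of log2 signal over the 106 probes detected on all 3 arrays. This moved the median difference over all shared miRNAs from 0.96 without scaling to 0.12 for exoRNeasy minus miRNeasy advanced, from −0.64 to 0.33 for exoRNeasy minus mirVana PARIS, and from −1.62 to 0.18 for miRNeasy advanced minus mirVana PARIS. On the scaled log2 scale miR-126a-3p had a level of 0.0046 with exoRNeasy, 0.026 with miRNeasy advanced and −0.87 with mirVana PARIS. The scaled levels on the exoRNeasy and miRNeasy advanced arrays thus differed by less than the spot error, while that with mirVana PARIS was lower than both.

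The scaled log2 ratio was −0.022 ± 0.04 for exoRNeasy minus miRNeasy advanced, a 0.985-fold level. It was 0.87 ± 0.04 for exoRNeasy minus mirVana PARIS, a 1.83-fold level. It was 0.89 ± 0.04 for miRNeasy advanced minus mirVana PARIS, a 1.86-fold level. The last 2 comparisons share the mirVana PARIS array, so they are not independent of each other. miR-126a-3p did not reach 2-fold in any of the 3 comparisons, whereas 4.48%, 27.5% and 16.9% of the miRNAs detected on both arrays did so in the same order, which is 3 of 67, 22 of 80 and 12 of 71. By direction, 2.99% were at least 2-fold higher and 1.49% at least 2-fold lower with exoRNeasy than with miRNeasy advanced. The shares were 25% higher and 2.5% lower with exoRNeasy than with mirVana PARIS, and 14.1% higher and 2.82% lower with miRNeasy advanced than with mirVana PARIS. The direction against mirVana PARIS depends on the scaling. Without scaling both ratios were below 0, as given above, and scaling to the 75th percentile of the whole array put them at −0.56 for exoRNeasy and −0.88 for miRNeasy advanced. With the labelling spike-in set equal the exoRNeasy ratio was 0.15 and the miRNeasy advanced ratio −0.78. The hybridisation spike-in differed the other way for exoRNeasy minus mirVana PARIS, 0.41 against −0.25 for labelling, and scaling to it was not run.

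Relative to other miRNAs the pattern is free of any single scaling factor. miR-126a-3p stood 0.54 above the median log2 ratio of the 80 miRNAs compared between exoRNeasy and mirVana PARIS, with 22 miRNAs higher and 57 lower. Its ratio of 0.87 was under the 75th percentile of the ratios, 0.99. It stood 0.71 above the median of the 71 miRNAs compared between miRNeasy advanced and mirVana PARIS, with 13 higher and 57 lower, and its ratio of 0.89 was over the 75th percentile of 0.67. Between exoRNeasy and miRNeasy advanced it was at −0.14 from the median of 67 miRNAs, with 43 higher and 23 lower, and its ratio of −0.022 lay between the 25th and 75th percentiles of −0.17 and 0.39. The values above the median against mirVana PARIS became 0.24 and 0.30 with normexp, a model-based background correction.

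**Figure D2:**
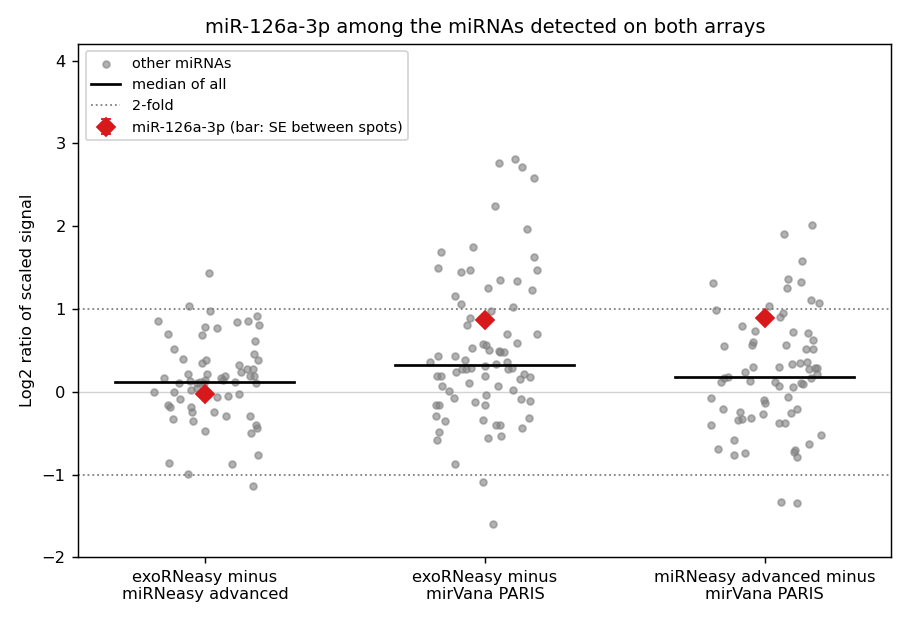
Log2 ratio of scaled signal (y axis) of every miRNA detected on both arrays in each of the 3 comparisons (x axis). Red diamonds are miR-126a-3p with the SE between spots, black bars the median of all miRNAs and dotted lines 2-fold; miR-126a-3p is at −0.022, 0.87 and 0.89, inside 2-fold in each comparison and above the median in the 2 with mirVana PARIS.

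The 2 probes of miR-126a-3p gave close ratios. The log2 ratio of probe A_54_P2286 minus that of A_54_P2285 was −0.03 ± 0.06 for exoRNeasy minus miRNeasy advanced, 0.07 ± 0.05 for exoRNeasy minus mirVana PARIS and 0.10 ± 0.06 for miRNeasy advanced minus mirVana PARIS (SE between spots). Over all miRNAs with several probes detected on both arrays, the median range between probes was 0.068 over 39 miRNAs, 0.14 over 43 and 0.12 over 42 in the same order. Both probes read the same miRNA from the same labelled sample, so they check the probe and not the extraction. The scanner software's own total gene signal for miR-126a-3p was 45.0 with exoRNeasy, 25.4 with miRNeasy advanced and 49.1 with mirVana PARIS, the same order as the probes.

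**Figure D3:**
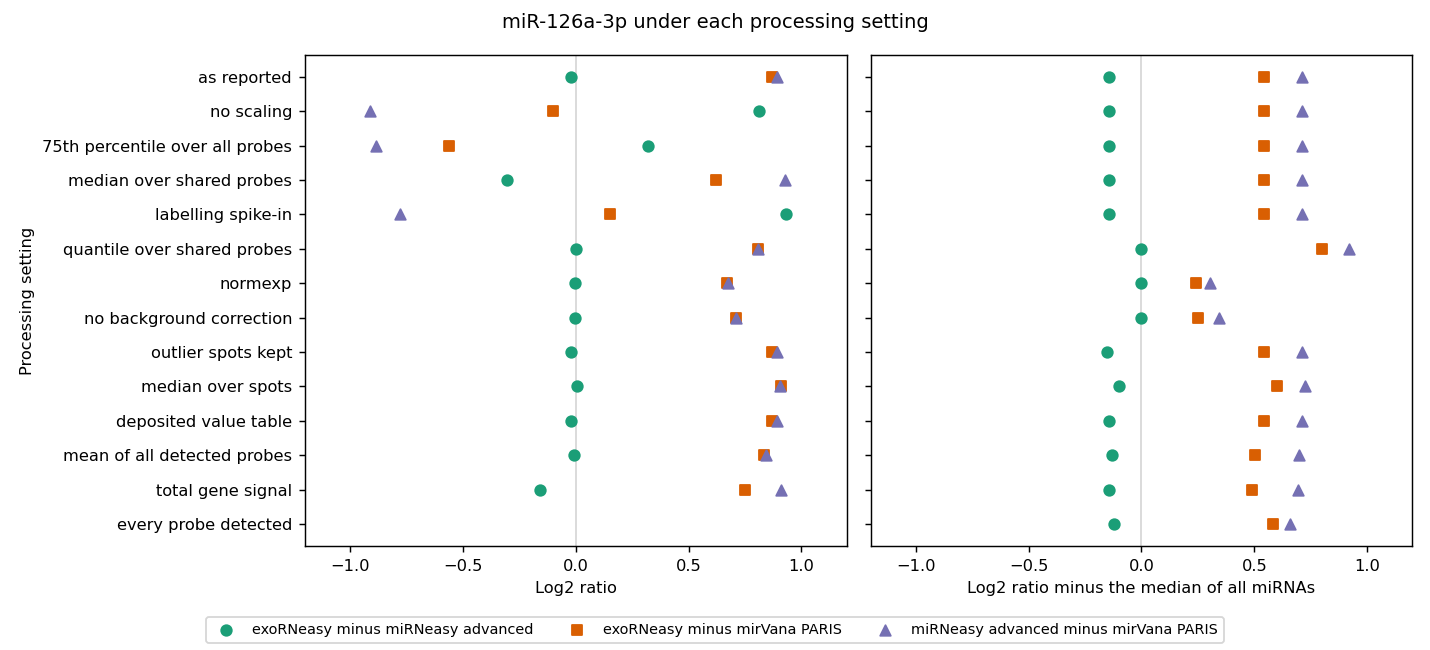
Log2 ratio of miR-126a-3p (left panel, x axis) and the same ratio minus the median of all miRNAs detected on both arrays (right panel, x axis) under each processing setting (y axis), with 1 marker per comparison. On the left the 2 ratios against mirVana PARIS are spread on both sides of 0, down to −0.91; on the right they stay above 0 in every setting, between 0.24 and 0.92.

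miR-126a-5p, the other arm of the same hairpin, was not well above background on any array, and 0 of its 15 or fewer spots per probe and array carried that flag. Its probe A_54_P1035 averaged −1.05 ± 2.34 with exoRNeasy (SD, 15 spots), 0.722 ± 1.70 with miRNeasy advanced (14 spots) and 2.72 ± 2.31 with mirVana PARIS (15 spots). Its probe A_54_P4367 averaged −3.19 ± 3.55 with exoRNeasy, −1.09 ± 1.85 with miRNeasy advanced (15 spots each) and −0.547 ± 1.41 with mirVana PARIS (14 spots). These means are below the negative control spots of the same arrays, which averaged 5.26, 4.88 and 4.90 on the exoRNeasy, miRNeasy advanced and mirVana PARIS arrays. The median undetected probe was below those controls too, at −3.44, −1.85 and −1.82 in the same order. With mirVana PARIS the mean of A_54_P1035 was higher than those of 93.5% of the 4202 undetected probes, and that of A_54_P4367 than 70.8%. The scanner software's weaker flag, positive and significant signal, was set for 8 of 15 spots of A_54_P1035 with mirVana PARIS and for 0 of 15 with exoRNeasy and 1 of 14 with miRNeasy advanced.

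The 2 arms of miR-126a thus differed in detection on every array. Different probes bind their miRNAs with different strength, so their signals are not set against each other as amounts. Since miR-126a-5p had no detected level on any array, no ratio between kits and no bound could be given for it, and whether the arms differed in how they responded to the kit could not be measured. A signal under the lowest detected probe was not detectable here, which is not the same as absence from serum.

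The strand opposite the miR-126a hairpin gave no detected signal either. The 4 other arms read at these loci, miR-126b-3p, miR-126b-5p, miR-221-5p and miR-222-5p, have 9 probes, and 0 of their spots were well above background on any array. Their probe means ranged from −7.33 to 0.043 with exoRNeasy, from −4.99 to −0.036 with miRNeasy advanced and from −4.55 to −1.39 with mirVana PARIS. The probes of miR-126b-5p, the near complement of miR-126a-3p, were among these, so signal was seen from 1 strand of the locus.

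miR-221-3p, a repressor of Kit and Cdkn1b, was above background from mirVana PARIS RNA by 1 of its 2 probes. Its probe A_54_P3830 had spots with a lowest, median and highest signal of 2.03, 6.26 and 9.88 with exoRNeasy, of 3.41, 5.59 and 10.5 with miRNeasy advanced, and of 8.68, 14.3 and 18.4 with mirVana PARIS. The mirVana PARIS spots overlapped the others only at their lower end. The means were 6.35 ± 2.76 (SD, 15 spots) with exoRNeasy, 6.21 ± 1.94 (14 spots) with miRNeasy advanced and 14.5 ± 2.69 (14 spots) with mirVana PARIS. On the mirVana PARIS array 13 of 14 spots were well above background, against 0 of 15 and 0 of 14 on the exoRNeasy and miRNeasy advanced arrays. The second probe, A_54_P2640, averaged 1.1 ± 2.03, 1.46 ± 2.76 and 5.38 ± 1.96 on the exoRNeasy, miRNeasy advanced and mirVana PARIS arrays (SD, 15 spots each) and was detected on none of them. Its mirVana PARIS mean was 0.19 SD of the negative control spots above their mean.

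No fold between kits can be stated for miR-221-3p after scaling. Its mean of 14.5 with mirVana PARIS lies under the lowest detected mean of 22.0 with exoRNeasy, so a probe of that signal would not have been counted there. Against the miRNeasy advanced array, whose lowest detected mean was 12.4, miR-221-3p was at least 1.17-fold brighter with mirVana PARIS without scaling. Scaling lowers the mirVana PARIS array relative to the other two, and after it the bound is under 1-fold, so that no difference can be given. The unscaled linear difference in mean signal was −8.18 ± 1.01 for exoRNeasy minus mirVana PARIS, −8.33 ± 0.89 for miRNeasy advanced minus mirVana PARIS and 0.144 ± 0.88 for exoRNeasy minus miRNeasy advanced (SE between spots), of which only the mirVana PARIS side is a detected level.

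miR-222-3p, which carries the seed of miR-221-3p, stayed under the detection rule on all 3 arrays. Its brighter probe, A_54_P2644, averaged 3.85 ± 2.81 with exoRNeasy, 0.981 ± 1.88 with miRNeasy advanced and 8.04 ± 2.61 with mirVana PARIS (SD, 15 spots each). On the mirVana PARIS array 2 of its 15 spots were well above background and 15 of 15 had positive and significant signal, which held for 6 of 15 with exoRNeasy and 2 of 15 with miRNeasy advanced. Its mirVana PARIS mean was higher than those of 99.4% of the 4202 undetected probes on that array. It was 1.24 SD of the negative control spots above their mean of 4.90. The dimmer probe, A_54_P2643, averaged 1.08 ± 3.17 with exoRNeasy (15 spots), −1.16 ± 2.20 with miRNeasy advanced (14 spots) and 4.84 ± 3.31 with mirVana PARIS (15 spots), with 1 of 15 spots well above background on the last. Its mirVana PARIS mean was at −0.025 SD from the mean of the negative control spots. The scanner software's own gene flag counted miR-222-3p as detected with mirVana PARIS, with a total gene signal of 1.70. That of miR-221-3p, also flagged there, was 3.08, and the 2 values come from different probes and are not compared as amounts.

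All 4 probes of miR-221-3p and miR-222-3p had their highest mean signal before scaling with mirVana PARIS, as did all 8 probes of the 4 miRNAs. Over the array the same held for 42.1% of 4415 probes. It held for 80.3% of the 218 detected on at least 1 array and for 40.1% of the 4197 detected on none. Of the pair's probes, A_54_P3830 is among the 218, and A_54_P2640, A_54_P2643 and A_54_P2644 are among the 4197. Whether the order of the arrays is particular to the pair was not tested. Between the exoRNeasy and miRNeasy advanced arrays the mean was higher with exoRNeasy for 3 of the 4 probes, with A_54_P2640 of miR-221-3p the exception. As none of these probes was detected on the exoRNeasy or miRNeasy advanced arrays, that order is not a measured difference, and a difference of the 2 members' ratios could not be computed.

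miRNAs whose scaled level followed that of miR-126a-3p most closely over the 3 arrays were found by the root mean square difference in log2 level after each miRNA's own mean was subtracted. Among the 66 other miRNAs detected on all arrays the closest were miR-3473b at 0.091, miR-1224-5p at 0.11 and let-7g-5p, a let-7 family member, at 0.15, against a median of 0.40 and a largest value of 1.03 for miR-144-3p. The ratios of miR-3473b were −0.24 ± 0.02 for exoRNeasy minus miRNeasy advanced, 0.80 ± 0.02 for exoRNeasy minus mirVana PARIS and 1.04 ± 0.02 for miRNeasy advanced minus mirVana PARIS. With 3 points per miRNA from 3 shared arrays, this likeness is a description of these arrays.

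**Figure D4:**
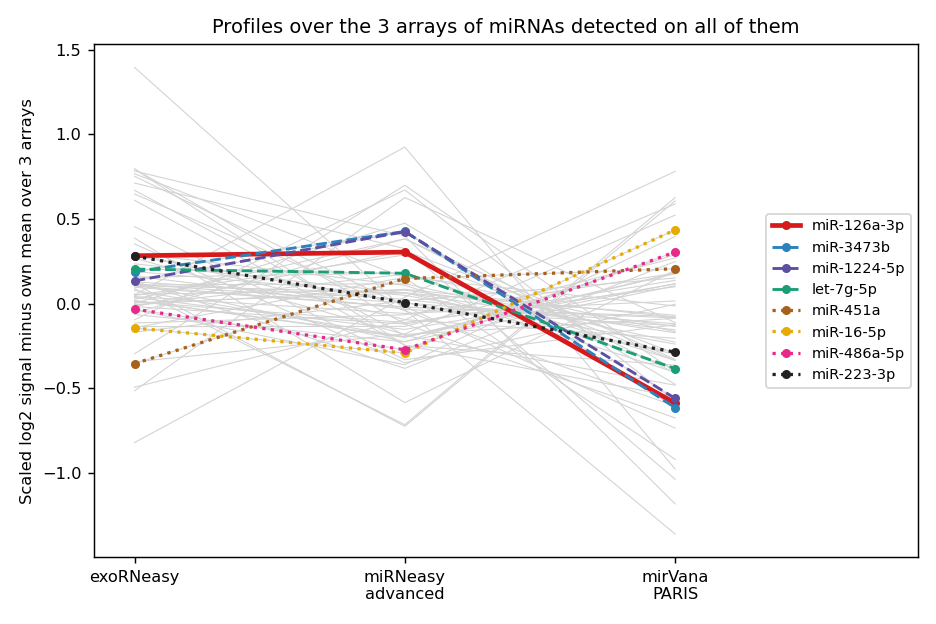
Scaled log2 signal minus each miRNA's own mean over the 3 arrays (y axis) on the exoRNeasy, miRNeasy advanced and mirVana PARIS arrays (x axis), for 67 miRNAs detected on all of them (grey). miR-126a-3p (solid red) is at 0.28, 0.30 and −0.59; dashed lines are the 3 closest miRNAs, and dotted lines are miR-451a, miR-16-5p, miR-486a-5p and miR-223-3p.

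Other miRNAs known from platelets and endothelial cells were detected in part. Of 15 platelet miRNAs, 10, 9 and 13 were detected on the exoRNeasy, miRNeasy advanced and mirVana PARIS arrays, and of 20 endothelial miRNAs 9, 9 and 15. Of all 1881 miRNAs these arrays detected 83, 71 and 134. The lists share 5 names, and the platelet list shares 5 with that of white blood cells, so they do not separate cell types. The median scaled ratio for exoRNeasy minus mirVana PARIS was 0.34 over the 10 platelet miRNAs detected on both arrays and 0.28 over 9 endothelial ones, beside 0.33 over all 80 miRNAs and 0.87 for miR-126a-3p. For miRNeasy advanced minus mirVana PARIS the medians were 0.18 and 0.17, beside 0.18 over all 71 and 0.89 for miR-126a-3p. For exoRNeasy minus miRNeasy advanced both were 0.10, the ratio of the same shared miRNA, beside 0.12 over all 67.

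Past 2-fold in these lists, beside the shares of all miRNAs given above, were miR-26a-5p, 1 of the 10 platelet miRNAs, at 1.45 ± 0.08, and miR-125b-5p, 1 of the 9 endothelial ones, at 1.25 ± 0.05 for exoRNeasy minus mirVana PARIS. miR-142a-3p, a miRNA of blood-forming cells on the platelet and white blood cell lists, was at −1.14 ± 0.06 for exoRNeasy minus miRNeasy advanced, −0.40 ± 0.06 for exoRNeasy minus mirVana PARIS and 0.74 ± 0.04 for miRNeasy advanced minus mirVana PARIS. In the comparison of miRNeasy advanced with mirVana PARIS, 0 of the 9 platelet and 0 of the 9 endothelial miRNAs reached 2-fold. Over all miRNAs it was 12 of 71, or 16.9%, and lists of 9 are too short to set against that share. Among the platelet miRNAs, miR-199a-3p was at 0.48 ± 0.06 for exoRNeasy minus mirVana PARIS and 0.95 ± 0.05 for miRNeasy advanced minus mirVana PARIS. In the same comparisons miR-223-3p, abundant in myeloid cells and platelets, was at 0.57 ± 0.03 and 0.29 ± 0.03. There miR-21a-5p, present in most cells and on both the platelet and endothelial lists, was at 0.38 ± 0.03 and 0.62 ± 0.04. Also on both of these lists, miR-92a-3p, of the miR-17-92 cluster, was at 0.50 ± 0.04 and 0.11 ± 0.04. Of the same cluster, miR-20a-5p, on the endothelial list, went the other way, at −0.16 ± 0.04 and −0.38 ± 0.07. Against mirVana PARIS the platelet miRNAs ranged from −0.40 to 1.45 for exoRNeasy and from −0.33 to 0.95 for miRNeasy advanced, and the endothelial ones from −0.16 to 1.25 and from −0.38 to 0.62. Of the 7 white blood cell miRNAs, 3, 3 and 5 were detected on the exoRNeasy, miRNeasy advanced and mirVana PARIS arrays, and the median ratio over the 3 compared was 0.074 for exoRNeasy minus mirVana PARIS and 0.29 for miRNeasy advanced minus mirVana PARIS.

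Red blood cell miRNAs lay on the other side of the median from miR-126a-3p in the comparisons with mirVana PARIS. Of 8 on the list, 5 were detected on each array, and 0 of 5 were above the median of all miRNAs in either comparison; with quantile scaling, the exception among the settings run, 1 of 5 was above it for miRNeasy advanced minus mirVana PARIS. Their median ratio was −0.56 for exoRNeasy minus mirVana PARIS and −0.58 for miRNeasy advanced minus mirVana PARIS. In the first, miR-16-5p was at −0.58 ± 0.02, miR-486a-5p at −0.34 ± 0.03, miR-451a at −0.56 ± 0.02 and miR-144-3p at −1.60 ± 0.04. There the 5 ranged from −1.60 to −0.080. In the second they ranged from −0.74 to −0.058 ± 0.03, the last for miR-451a. The summed unscaled signal of the red cell list was 7025 with exoRNeasy, 5377 with miRNeasy advanced and 20233 with mirVana PARIS. Most of that sum was miR-451a, at scaled log2 levels of 5.56, 6.06 and 6.12 on these arrays. Those of miR-16-5p were 1.70, 1.56 and 2.28. In the same order the sum was 2903, 1626 and 4397 for the platelet list, 2453, 1407 and 3809 for the endothelial list, and 784, 403 and 1135 for the white blood cell list. The part of red cell miRNAs in the scaled level of miR-126a-3p was not tested.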

How the data were processed

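Serum miRNAs were measured on 1-colour Agilent mouse miRNA arrays, 1 per extraction kit. The authors deposited linear spot intensity from Agilent Feature Extraction 11.5.1.1, background-subtracted with spatial detrending and not normalised between arrays, per the file headers; the submitters' processing notes name version 11.5. The deposited value table holds the same intensities, all 58594 per array within 0.50% of the scanner value; the median of the exoRNeasy column was −2.77, that of miRNeasy advanced −1.51 and that of mirVana PARIS −1.44, so its scale is linear, it is not centred, and single-array levels have no direction to settle.

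Control and outlier-flagged spots were left out (1515, 1474 and 1427 outliers for exoRNeasy, miRNeasy advanced and mirVana PARIS), signals under 1 were set to 1, and log2 values were averaged for each probe. Each array's 75th percentile was then subtracted, taken over the 106 probes that all 3 arrays detected. For a miRNA the probe with detection on most arrays was used and, among equals, the brightest. Errors combine the standard errors between spots of both arrays. The number of arrays limits the precision. A bound divides the bright level by the lowest detected level of the dim array, or by the dim level where that is higher. Alternatives covered scaling, background correction (normexp in limma 3.58.1 with offset 50, on pixel medians as no pixel mean was given), probe choice, spot summary, the value table and detection rules. Ratio and calling steps were tested on simulated data with the same noise on every array. There the ratios were centred on the unchanged miRNAs before calling, which was not done for the counts reported here.

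Named were the 4 miRNAs, the other arms of their hairpins and of miR-126b, the 3 closest profiles, up to 4 members of each cell type list, those furthest from 0 in any ratio if detected on all arrays, and miR-451a, miR-16-5p, miR-486a-5p and miR-223-3p; miR-26a-5p, miR-1928 and the largest profile distance were picked with values in view. The 4 miRNAs and the lists were chosen with earlier results of these data known. Figures were drawn with matplotlib 3.10.9.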

Additional observations from a re-analysis of the deposited data

How the results depend on the processing

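No paired analysis was possible because each kit had 1 array. A value counted as moved when it changed by over 1.96 spot errors, and 12 alternatives were run per ratio. The log2 ratio of miR-126a-3p for exoRNeasy minus miRNeasy advanced became 0.81 without scaling, 0.32 with the 75th percentile over all probes, −0.30 with the median over shared probes, 0.93 with the labelling spike-in and −0.16 with the total gene signal. For exoRNeasy minus mirVana PARIS it became −0.099, −0.56, 0.62, 0.15 and 0.75 under the same 5, 0.67 with normexp and 0.71 without background correction. For miRNeasy advanced minus mirVana PARIS it became −0.91 without scaling, −0.88 with all probes, −0.78 with the spike-in, 0.81 with quantile scaling, 0.67 with normexp and 0.71 without background correction. Minus the median of all miRNAs, a result added after seeing the data, quantile scaling, normexp and no background correction gave 0, 0 and −0.0020 for exoRNeasy minus miRNeasy advanced, 0.80, 0.24 and 0.25 for exoRNeasy minus mirVana PARIS, and 0.92, 0.30 and 0.34 for miRNeasy advanced minus mirVana PARIS. The offset of normexp and uncorrected background both add to the signal of every spot, which can shrink log2 differences. With normexp and without background correction, the scaled median of all miRNAs went from 0.33 to 0.43 and 0.46 for exoRNeasy minus mirVana PARIS. It went from 0.18 to 0.37 and 0.37 for miRNeasy advanced minus mirVana PARIS. For exoRNeasy minus miRNeasy advanced it went from 0.12 to −0.0013 and −0.00062. The causes of the changes under these 2 settings and under quantile scaling were not tested. The other 10 of 13 alternatives moved none of the 3 differences from the median. Those among them that scale each array by a single factor could not have moved them, so they are no check.

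The count of miRNAs at least 2-fold apart, with higher and lower ones in the first kit, depended on scaling. For exoRNeasy minus miRNeasy advanced, 3 (2 and 1) became 29 (29 and 0) without scaling, 12 (12 and 0) with all probes, 6 (1 and 5) with the median, 39 (39 and 0) with the spike-in, 6 (2 and 4) with quantiles, 0 with normexp, 0 without background correction, 10 of 89 compared with the total gene signal and 1 of 38 with every probe required, against 3 of 67. For exoRNeasy minus mirVana PARIS, 22 (20 and 2) became 49 (4 and 45) with all probes, 13 with quantiles, 10 with normexp, 14 without background correction and 6 of 42 with every probe required (14.3%, against 27.5% of 80), while the split was 5 and 22 without scaling and 7 and 14 with the spike-in. For miRNeasy advanced minus mirVana PARIS, 12 (10 and 2) became 57 (0 and 57) without scaling, 56 (0 and 56) with all probes, 53 (0 and 53) with the spike-in, 7 with normexp, 7 without background correction and 6 of 41 with every probe required, where the share was 14.6% against 16.9% of 71. miR-221-3p was detected on 0 arrays with every probe required, and miR-222-3p on 1, mirVana PARIS, with at least 1 spot well above background or by the scanner software's flag; miR-126a-3p and miR-126a-5p kept 3 and 0 arrays under the 3 rules. Pair differences and the ratios of the other 3 miRNAs gave no value under any setting, since these were not detected on 2 arrays. Signal over background limits what can be said of all but miR-126a-3p.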
